A study of Homo sapiens with 4 samples.

Results

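The 5 genes FHIT, WWOX, LRP1B, IMMP2L and NAALADL2 lie at common fragile sites. The cover of their bodies by the peaks of 2 lists from an H3K9me3 experiment in U2OS cells was described. It was followed along each gene and set against 1 Mb on either side. The rule that defines the set gives names and hg19 positions and uses no measured value, although the set was proposed with earlier results of these data known. The genes are 5 of 20056 protein coding genes in the RefSeq table used here. Their bodies add up to 6.78 Mb. They held 873 of the 326674 peaks of list 1 and 738 of the 264919 peaks of list 2 on chromosomes 1 to 22 and X.

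The lists come from chromatin immunoprecipitation and sequencing in U2OS, an established human osteosarcoma line. All 4 samples carry the name KRAB-IDR3-TCF3 in their labels, which do not say what it stands for. There were 2 cross-linked samples precipitated with an antibody against H3K9me3 and 2 input samples without antibody, numbered as replicates 1 and 2 within each group. The input labels of both replicates point to list 1 and the antibody labels to list 2, yet peak names in both files read as immunoprecipitations. Neither list was therefore given to a group, and values of the lists stand side by side without a comparison of conditions. Each list is 1 set of values with no replicate error. The depth is unknown, and no difference below was tested.

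H3K9me3 marks constitutive heterochromatin and is bound by HP1 proteins, which compact chromatin and hold its parts together. Common fragile sites are regions that show gaps and breaks on metaphase chromosomes when DNA replication is slowed. They replicate late, hold few replication origins and often lie within a single very long gene, where transcription can last as long as a large part of the cell cycle. FHIT, at FRA3B, encodes a hydrolase of diadenosine triphosphate. WWOX, at FRA16D, encodes an oxidoreductase with WW domains. Both are often deleted in tumours. LRP1B encodes an endocytic receptor of the low density lipoprotein receptor family. IMMP2L encodes a subunit of the inner membrane peptidase of mitochondria, and NAALADL2 a membrane protein related to glutamate carboxypeptidases.

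The genes ranged from almost fully covered to sparsely covered. WWOX was covered most, over 91.9% of its length in list 1 and 80.4% in list 2. FHIT was covered 64.0% and 31.5%, and IMMP2L 64.0% and 34.6%. LRP1B was covered 39.2% and 13.1%, and NAALADL2 37.9% and 12.0%. The median over the 5 genes was 64.0% in list 1 and 31.5% in list 2. The median over all windows of 1.4 Mb along the genome was 48.7% and 24.8%. When list 1 lost its peaks under the lowest −log10 p of list 2, its median over the genes was 7.21%, with WWOX at 89.9%, IMMP2L at 17.7%, FHIT at 7.21%, LRP1B at 3.89% and NAALADL2 at 3.18%. The median over all windows under that limit is not given here.

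The order of the genes was the same in both lists except that FHIT and IMMP2L changed places. The step from WWOX to the next gene, 27.9 percentage points down to FHIT in list 1 and 45.8 down to IMMP2L in list 2, was larger than the SD over the 100 kb bins of either gene. The steps from FHIT or IMMP2L down to LRP1B, 24.8 and 18.5 points, were so too. FHIT and IMMP2L differed by 0.0266 and 3.03 points, and LRP1B and NAALADL2 by 1.32 and 1.05 points, all within the SD over bins. Neighbouring bins of a gene are not replicates, and the SD describes unevenness along the gene.

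Set among all windows of its own length, WWOX lay near the top, with 99.3% of windows covered less in each list. FHIT was covered more than 79.8% of windows in list 1 and 66.5% in list 2, and IMMP2L more than 77.4% and 71.4%. LRP1B was covered more than 29.8% and 17.2% of windows, and NAALADL2 more than 28.3% and 16.0%. Against its own chromosome, LRP1B was lower still, above 9.77% of windows of chromosome 2 in list 1 and 2.56% in list 2. FHIT stood higher on chromosome 3 than in the genome, above 90.6% and 81.5% of windows there. These windows overlap one another, and the percentages are descriptions.

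**Figure D1:**
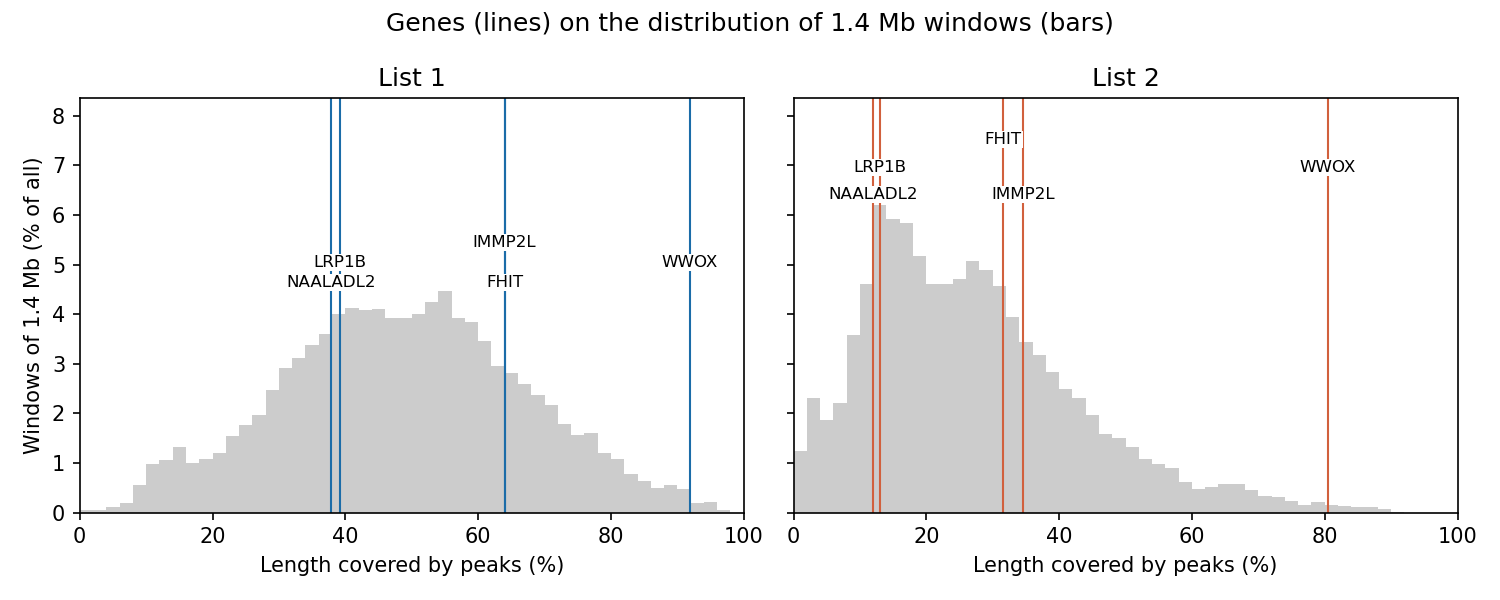
Bars give the share of all 1.4 Mb windows (vertical axis, %) by the length covered by peaks (horizontal axis, %), for list 1 on the left and list 2 on the right, and vertical lines mark the 5 gene bodies. WWOX stands in the right tail of both lists at 91.9% and 80.4%, and NAALADL2 and LRP1B lie left of the median window.

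Compared with the 1 Mb on either side, FHIT and WWOX were covered more and LRP1B less, in both lists. FHIT was covered 64.0% in list 1, against 37.8% beyond its 5′ end and 52.3% beyond its 3′ end. In list 2 it was covered 31.5%, against 16.5% and 24.8%. WWOX at 91.9% lay above 76.6% and 80.5% in list 1, and at 80.4% above 54.3% and 58.7% in list 2. LRP1B at 39.2% lay below 62.5% and 63.7% in list 1, and at 13.1% below 33.6% and 37.1% in list 2.

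IMMP2L stood above both flanks in list 1 but between them in list 2. It differed from its 5′ flank by 0.882 points in list 1 and −2.03 in list 2 and from its 3′ flank by 4.36 and 5.88 points. NAALADL2 lay between its flanks in both lists, 0.253 and 0.408 points above the 5′ flank, towards NLGN1. Its 3′ flank, towards TBL1XR1, was covered 46.3% and 17.4%.

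In all, 3 of 5 genes were covered more than both flanks in list 1 and 2 of 5 in list 2, against 29.2% and 29.6% of all 1.4 Mb windows. LRP1B was the 1 gene covered less than both flanks in each list, against 29.3% and 28.4% of windows. With flanks of 0.5 Mb only WWOX stood above both, in each list. In list 1 without its peaks under the lowest −log10 p of list 2, 2 genes did: WWOX, at 89.9% against 38.5% and 58.8%, and FHIT, at 7.21% against 3.84% and 4.58%. The difference from the mean of the flanks was then −3.88 points for IMMP2L. Shares of all windows above both flanks, with the shorter flanks or under that limit, are not given here.

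**Figure D2:**
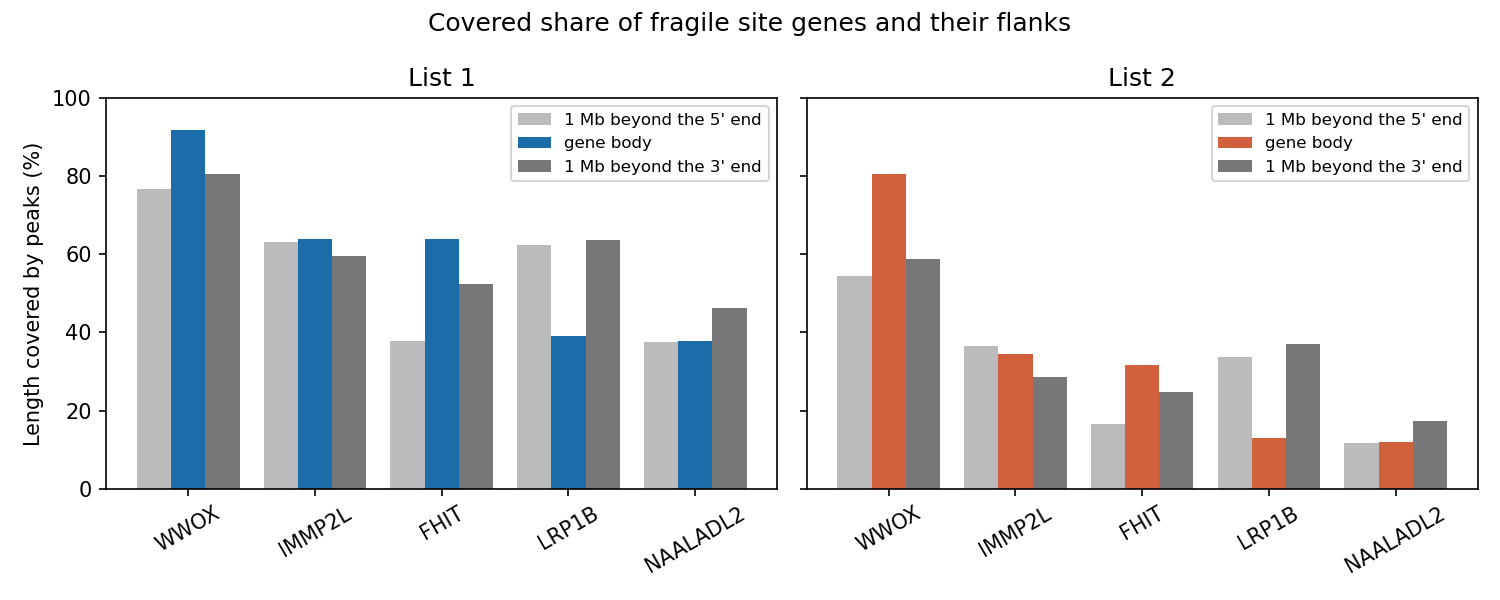
Bars give the length covered by peaks (%) in the 1 Mb beyond the 5′ end, the gene body and the 1 Mb beyond the 3′ end of each gene, for list 1 on the left and list 2 on the right. The gene body is the tallest of its 3 bars for WWOX and FHIT in both lists and the shortest for LRP1B.

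The profiles in 100 kb bins differed in form. Of the 69 bins along the 5 genes, 40 (58.0%) were more than 50% covered in list 1 and 13 (18.8%) in list 2, against 48.4% and 16.1% of all bins of the genome. With list 1 held to the smallest −log10 p found in list 2, its share was 17.4%. The share of all bins of the genome under that limit is not given here, so 48.4% is not its background. WWOX gave 12 of its 12 bins in both lists. In list 2 the other such bin was 1 of IMMP2L, and FHIT, LRP1B and NAALADL2 had 0. In list 1, FHIT had 14 of 15, IMMP2L 8 of 9, LRP1B 5 of 19 and NAALADL2 1 of 14.

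WWOX (chromosome 16 from 78130001 to 79250000) carried wide peaks that joined into a nearly unbroken domain. Its bins lay between 63.9% and 100% (list 1) and between 53.0% and 100% (list 2), and the lowest bin in both lists was the one at the 5′ end. Peaks in WWOX had a median width of 17823 bp in list 1, against 1973 bp over the whole list, and 4446 bp in list 2, against 1564 bp. In its 5′ and 3′ flanks the median width was 4507 and 5985 bp in list 1, and 2947 and 2860.5 bp in list 2. The widest peak of list 1 in the gene, from 78802756 to 79000066, was 197 kb wide and ranked 14 of all its peaks by width. It filled the bin from 700 to 800 kb downstream of the 5′ end. The widest of list 2, from 78921798 to 78991039 and 69.2 kb wide, ranked 76 and lay within the same stretch. Peaks less than 10 kb apart joined into a domain over 97.1% of the gene in list 1 and 97.0% in list 2. This domain ran on past the 3′ end, where RefSeq lists MAF as overlapping and DYNLRB2 as the next gene, by 1601 kb and 375 kb. Both flanks of WWOX were themselves dense, but cover was 54.5% and 21.3% in the outermost 5′ bin.

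LRP1B (chromosome 2 from 140990001 to 142890000) was split by a stretch without any peak. The stretch ran from 141946088 to 142180784 in both lists together, 235 kb long, from 709 to 944 kb downstream of the 5′ end. In list 2 alone it was 286 kb long. It ranked 88 by length among the stretches under 1 Mb that were free of peaks in both lists, of which 108 were at least 200 kb long and 8 of those lay on chromosome 2. Of the 69 bins, 2 were under 1% covered in each list, both of them in LRP1B, against 1.88% and 5.61% of all bins of the genome.

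The sides of this stretch were unlike. The 709 kb towards the 5′ end were covered 57.7% in list 1 and 24.4% in list 2, with a median peak width of 2396 and 1192 bp. The 956 kb towards the 3′ end were covered 35.1% and 7.81%, with a median width of 1338 and 887 bp. The flanks of the gene were covered more than either side in both lists. With peak-free stretches of at least 100 kb taken out of the spans, LRP1B was still below the mean of its flanks. The cause of the stretch was not tested, and DNA copy number was not measured here.

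FHIT (chromosome 3 from 59740001 to 61240000) held peaks in each of its 100 kb bins in both lists, and its cover was least at its 5′ end. Cover per bin lay between 41.7% and 77.6% (list 1) and between 15.7% and 47.0% (list 2). In both lists the bin at the 5′ end was the lowest, and the bin from 900 to 1000 kb downstream of it the highest. The longest peak-free stretch inside the gene was 9.60 kb in list 1 and 22.8 kb in list 2. Peaks less than 10 kb apart made 1 domain over the whole gene in list 1, and 20 domains in list 2. Just beyond the 3′ end, on the side of CFAP20DC, the adjoining 100 kb were covered 87.5% and 67.5%, more than any bin of the gene. The outermost bin of that flank was covered 35.3% and 13.8%. On the 5′ side, towards PTPRG, the outermost bin was covered 25.4% and 10.7%.

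IMMP2L (chromosome 7 from 110300001 to 111200000) had bins between 42.5% and 75.8% (list 1) and between 17.8% and 51.7% (list 2). The lowest in both lists was the bin from 400 to 500 kb downstream of the 5′ end, and it held the longest peak-free stretch of the gene in list 1 (16.3 kb) and in list 2 (33.4 kb). LRRN3, a neuronal membrane protein gene, lies inside IMMP2L, and its place on hg19 was not used here. The 100 kb outside the 5′ end, towards DOCK4, were covered 85.3% and 70.3%, and the 100 kb inside 54.4% and 27.4%.

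NAALADL2 (chromosome 3 from 174160001 to 175520000) was sparse throughout. Cover per bin lay between 21.3% and 51.0% (list 1) and between 5.96% and 20.7% (list 2). Its median peak width was 1400.5 and 993 bp. In list 2 its highest bin was the one at the 5′ end, where its widest peak of that list (11.7 kb) lay from 174164600 to 174176325.

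**Figure D3:**
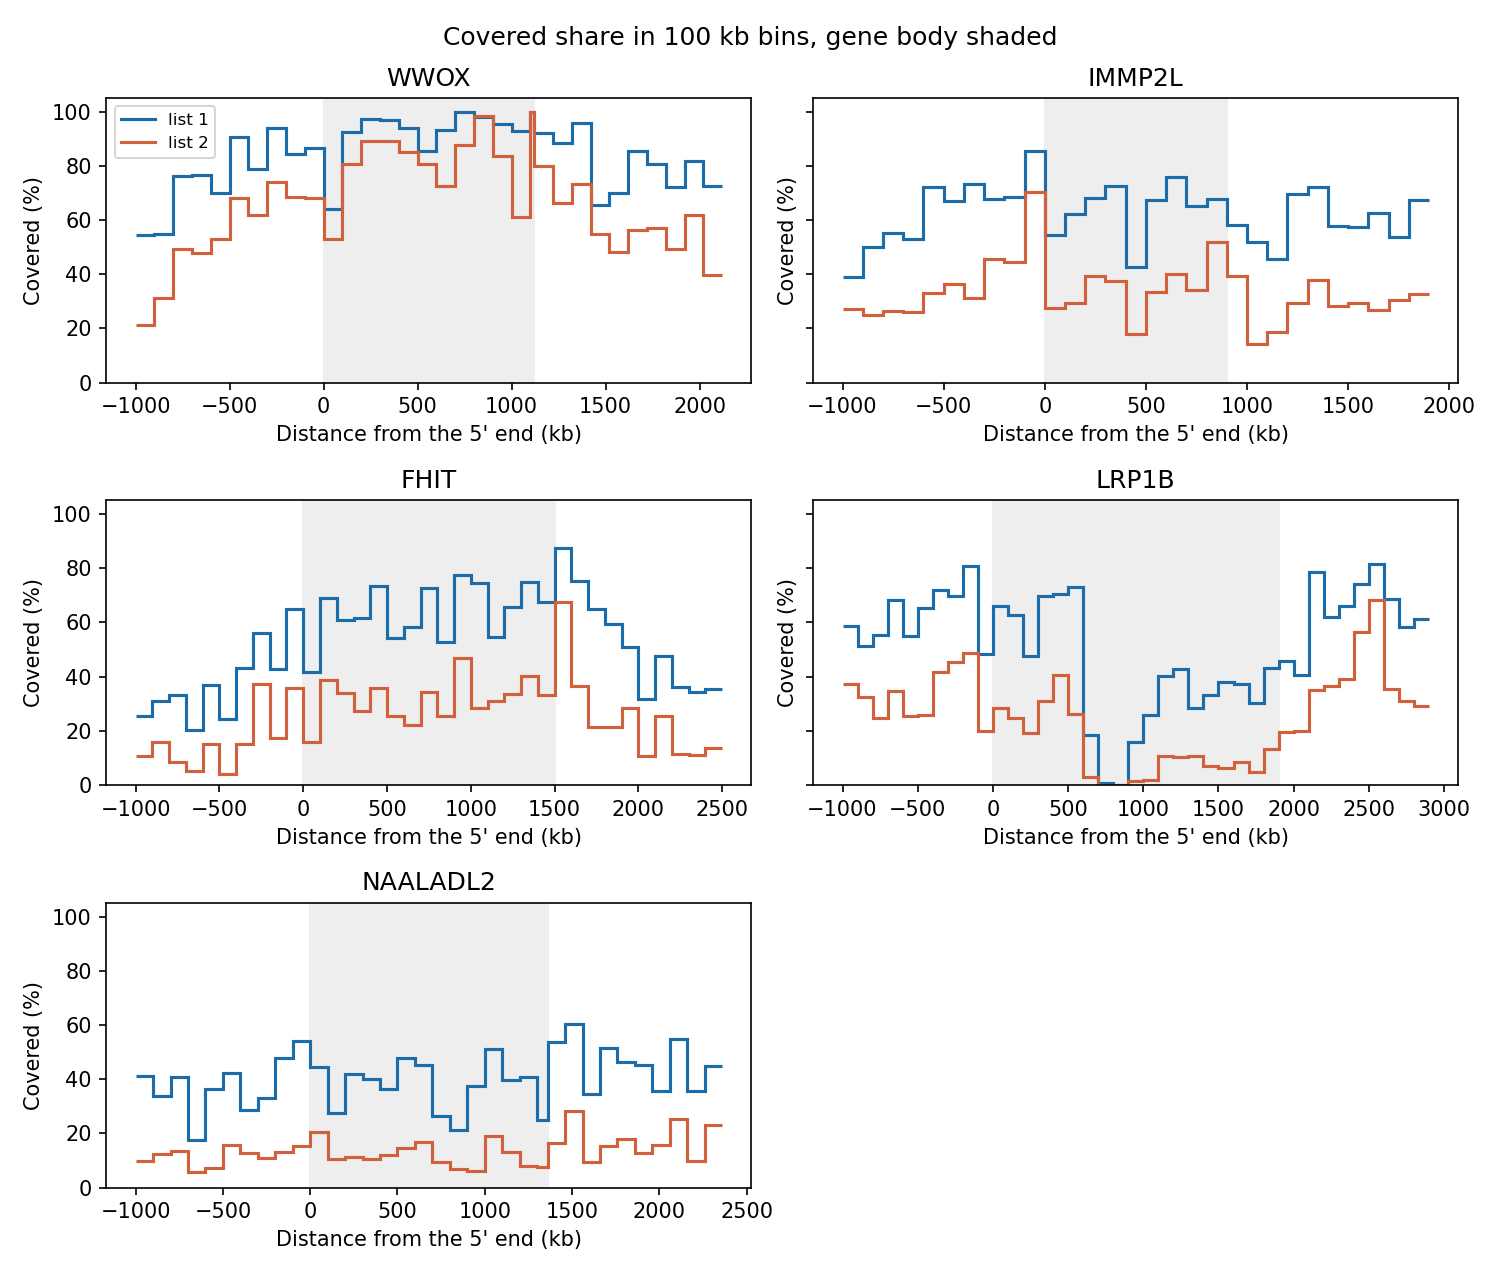
Steps give the covered share (%) in 100 kb bins against the distance from the 5′ end (kb) for each gene and the 1 Mb on either side, list 1 in blue and list 2 in orange, with the gene body shaded. WWOX is high throughout with a dip in its first bin, LRP1B drops to 0 in the bin from 800 to 900 kb, FHIT adjoins a higher bin outside both ends, and IMMP2L outside its 5′ end.

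The first 30 kb inside the border are a zone chosen after seeing the profiles. They were covered less than the whole gene in WWOX, FHIT and IMMP2L, and more in LRP1B and NAALADL2. How often any 30 kb piece of a gene falls below its gene is not given here, so the split only describes these genes. The first 30 kb of WWOX were covered 0% in list 1 and 0.427% in list 2, against 91.9% and 80.4% of the whole gene. The 30 kb just upstream were covered 85.6% and 68.1%. The peak-free stretch spanned 78129143 to 78162243 (list 1) and 78130129 to 78163941 (list 2), from near the gene border, which is rounded to 10 kb, into the gene. WWOX was the 1 gene of 5 with its first 30 kb under 1% covered, in each list, against 4.25% and 14.3% of all 30 kb bins of the genome.

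The first 30 kb of IMMP2L were covered 37.8% and 9.82%, against 74.3% and 72.9% in the 30 kb upstream. Those of FHIT were covered 39.3% and 12.2%, against 46.7% and 21.2% upstream. Each lay under the share of its whole gene in both lists. LRP1B was covered more in its first 30 kb, at 67.6% and 30.8%, than over its body. NAALADL2 was so too, at 63.8% and 46.8%, against 37.9% and 12.0% over the body. Near the 5′ border of LRP1B the longest peak-free stretch was 9999 bp in list 1 and 17946 bp in list 2. In NAALADL2 it was 8298 and 11927 bp, in FHIT 7629 and 14350 bp, and in IMMP2L 11273 and 11641 bp. FHIT and IMMP2L were not set apart from LRP1B and NAALADL2 by that measure. Gene borders are known here to 10 kb only, and RNA was not measured.

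RefSeq promoter windows that begin at the annotated 5′ end were found for WWOX, IMMP2L and FHIT alone among the 5 genes, so LRP1B and NAALADL2 have no window to set beside them. The first 30 kb of these 3 genes, a zone chosen after seeing the profiles, were covered less than the whole gene in both lists. A link to the windows was not tested. All 3 windows found are shown. Each runs from 250 bases before the start to 50 after it, on GRCh38.p14. Capitals mark each CG dinucleotide, the site of DNA methylation in vertebrates. WWOX lies on the plus strand, IMMP2L and FHIT on the minus strand.
WWOX: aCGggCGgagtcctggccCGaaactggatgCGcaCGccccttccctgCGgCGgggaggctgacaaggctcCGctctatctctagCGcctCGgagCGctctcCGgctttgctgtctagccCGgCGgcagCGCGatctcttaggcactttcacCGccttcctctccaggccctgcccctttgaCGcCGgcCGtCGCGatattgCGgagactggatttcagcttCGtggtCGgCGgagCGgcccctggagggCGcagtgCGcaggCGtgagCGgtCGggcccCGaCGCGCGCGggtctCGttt
IMMP2L: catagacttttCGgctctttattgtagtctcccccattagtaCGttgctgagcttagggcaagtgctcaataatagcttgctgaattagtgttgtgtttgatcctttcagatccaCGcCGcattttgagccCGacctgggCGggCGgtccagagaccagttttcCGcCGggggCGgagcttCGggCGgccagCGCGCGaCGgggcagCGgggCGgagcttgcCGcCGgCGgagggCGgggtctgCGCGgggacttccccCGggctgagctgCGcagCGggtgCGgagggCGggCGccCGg
FHIT: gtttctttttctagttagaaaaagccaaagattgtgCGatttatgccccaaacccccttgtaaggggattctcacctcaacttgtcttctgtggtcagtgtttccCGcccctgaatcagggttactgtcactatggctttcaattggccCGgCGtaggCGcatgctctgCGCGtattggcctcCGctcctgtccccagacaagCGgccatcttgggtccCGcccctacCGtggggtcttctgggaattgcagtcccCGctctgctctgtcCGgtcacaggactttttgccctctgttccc
The WWOX window held 38 CG dinucleotides, a number that 9.91% of the 35116 promoter windows in the table reach or pass. The IMMP2L window held 31 (20.7% of windows) and the FHIT window 13 (51.7%), next to a median of 14. CG dinucleotides read alike on both strands, and 96.0% of all windows held at least 1. These matches describe the windows and no more.

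**Figure D4:**
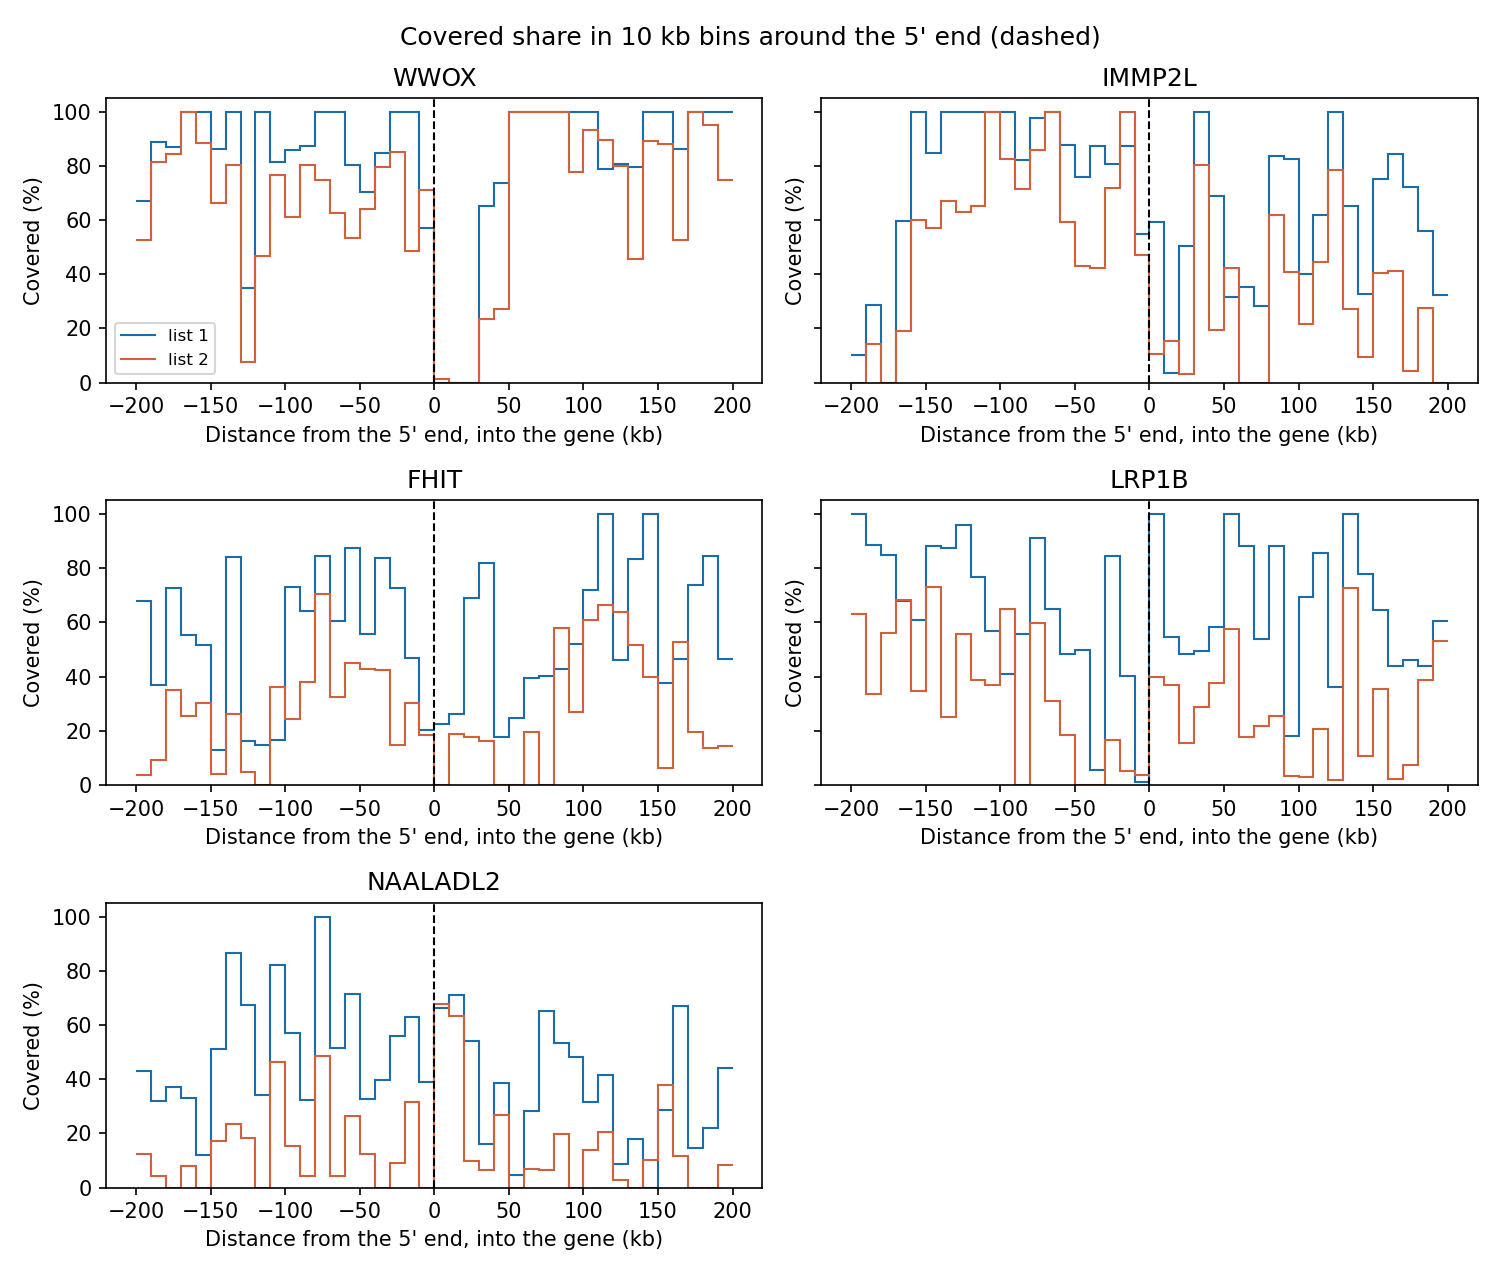
Steps give the covered share (%) in 10 kb bins from 200 kb upstream to 200 kb into each gene, list 1 in blue and list 2 in orange, with the 5′ end dashed. WWOX falls to near 0 for 30 kb at the dashed line and is high on both sides of it. The first bins inside LRP1B and NAALADL2 are not low, but the bin just outside LRP1B is covered 0.96% and 3.54%.

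Fold enrichment was low in both whole lists, and the medians of these genes lay on both sides of the list medians. The authors' fold enrichment, a ratio over the peak caller's background, had a median between 1.55 in NAALADL2 and 1.98 in WWOX in list 1, and between 1.99 and 2.32 in the same genes in list 2. The medians of the whole lists were 1.64 and 2.12. The highest fold in list 2 belonged to a 552 bp peak near the 3′ end of WWOX, from 79201674 to 79202225, at 3.55 with a q of 0.00834. In list 1 it belonged to a 754 bp peak of LRP1B, from 141059441 to 141060194, at 2.71 with a q of 0.0818. A q at or under 0.05 was reached by 0 of 873 peaks in list 1, against 0.19% of the whole list, and by 3 of 738 in list 2, against 2.07%. These 3 were 1 each in FHIT, WWOX and LRP1B. The highest folds in FHIT, LRP1B and NAALADL2 all belonged to peaks under 1 kb.

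Wide peaks were concentrated in WWOX in list 2. Peaks of at least 10 kb were 76 of 873 (8.71%) in list 1, against 9.62% of the whole list, and 33 of 738 (4.47%) in list 2, against 4.45%. WWOX held 18 of the 76 and 28 of the 33, and they made up 93.6% and 80.0% of its covered length. FHIT held 27 and 0, IMMP2L 15 and 3, LRP1B 12 and 1, and NAALADL2 4 and 1. In NAALADL2 they made up 9.59% and 7.18% of the covered length.

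Counted at 1 bp, list 1 shared about as large a part of its peaks in these genes as over its whole length, and list 2 slightly less. By the stricter rule given last both lists shared less. Of the peaks of list 2 in the 5 genes, 648 of 738 (87.8%, Wilson 95% interval 85.2 to 90.0%) overlapped a peak of list 1 by at least 1 bp, against 90.1% of the whole list. Of those of list 1, 440 of 873 (50.4%, 47.1 to 53.7%) overlapped a peak of list 2, against 50.8% of the whole list. The intervals cover counting error only and treat neighbouring peaks as independent. By gene, the share of list 2 peaks with a partner ran from 74.4% in NAALADL2 to 98.9% in WWOX, and that of list 1 peaks from 35.2% to 87.9% in the same genes. The length covered in both lists was 78.4% of WWOX, 30.1% of IMMP2L, 24.7% of FHIT, 10.7% of LRP1B and 7.94% of NAALADL2, which is the order of the genes by cover in list 2. Both measures by gene rise with cover itself. No value expected from cover alone is given here, so they do not rank the genes by agreement of the lists. Under a stricter rule, in which the overlap made up 50% or more of both partners, the shares were 13.8% for list 2, against 19.9% of the whole list, and 11.7% for list 1, against 16.1%.

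Along each gene the lists had like profiles. Spearman's rho over the 100 kb bins was 0.943 in LRP1B (19 bins), 0.876 in WWOX (12 bins), 0.867 in IMMP2L (9 bins), 0.821 in FHIT (15 bins) and 0.754 in NAALADL2 (14 bins). These describe neighbouring bins of 2 lists from 1 cell line, whose source libraries are not known to be separate. List 1 covered more of the bin in 66 of 69 bins, the lists were equal in 2, and list 2 covered more in 1, in WWOX.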

How the data were processed

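Cross-linked U2OS chromatin gave, per the labels, 2 input and 2 H3K9me3 antibody samples. The deposited files were 2 broad peak lists on hg19, numbered 1 and 2. Per the submitters' processing notes, the tools were MACS2 2.2.7.1, Bowtie2 2.5.0, Trim Galore 0.6.7 and bcl2fastq 2.17, named without role or order. How duplicates were treated, the cutoff and the control were not given in the sources used here. Fold enrichment is the authors' ratio over background. The −log10 p and the −log10 q are deposited values as well. The lowest −log10 p was 1.02 in list 1 and 1.58 in list 2. No per-sample depth is known.

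Gene bodies were taken from hg19 positions rounded to 10 kb. Bins of 100 kb started at the lower coordinate, so that 2 end bins were shorter. Genome windows stepped by 100 kb and left out peak-free stretches of at least 1 Mb, a choice made after seeing the data. The strand of LRP1B came from general knowledge, as did those of the other genes, which the RefSeq promoter table also gives. Neighbours were named from RefSeq on GRCh38.p14 without coordinates. The 20056 genes and all neighbours come from that table. The named genes are the 5 members, 1 further gene of the set is not reported here, and the named peaks are the widest and the highest in fold of each gene and list. Members and lists were chosen with earlier results of these data known, and the segments of LRP1B and the 30 kb ends after seeing the profiles. The planned list of other fragile site genes was not used, since it needed hg19 gene coordinates. The steps were tested on simulated data. Versions were matplotlib 3.10.9, scipy 1.17.1, pandas 2.3.3, numpy 2.4.6 and Python 3.11.15.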

Additional observations from a re-analysis of the deposited data

How the results depend on the processing

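No paired analysis was possible because neither list could be assigned to a sample: the samples of each group are numbered as replicates 1 and 2, but both replicates of a group name the same list. Leaving out a replicate was not possible for the same reason. Depth is unknown. With −log10 q of at least 2 the median covered share and the bins more than 50% covered were 0 in both lists. Then 0 genes in list 1 and 1 in list 2 stood above both flanks. That 1 gene was WWOX, by 0.0493 points from the mean of its flanks, and it rested on 1 peak of 552 bp. With peaks of more than their list's median fold, the median share was 48.4% in list 1 and 14.9% in list 2, 40.6% of bins of list 1 were more than 50% covered, and 2 genes in list 1 and 1 in list 2 stood above both flanks. With list 1 freed of peaks under the smallest −log10 p in list 2 these values were 7.21%, 17.4% and 2 genes, and with base pairs in both lists 24.7%, 17.4% and 2 genes, for list 1. Flanks of 0.5 Mb left 1 gene in each list. The limits on q, fold and p left fewer peaks, while flanks of 0.5 Mb used the same peaks. The cause of these moves was not tested. Shares over the genome under these settings are not given here.

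The difference of each gene from the mean of its flanks kept its sign in 91 cases over all alternatives, 5 turned, and the others were 0 for want of peaks. IMMP2L turned from 2.62 points in list 1 to −0.173 (peaks above the median fold), −3.88 (limited list 1) and −1.91 (flanks of 0.5 Mb), and from 1.92 in list 2 to −2.16 (flanks of 0.5 Mb) and −0.478 (flanks of 2 Mb). FHIT and WWOX stayed above and LRP1B and NAALADL2 below wherever the difference was not 0. For WWOX in list 2 with −log10 q of at least 2 this difference was only 0.0493 points. With the windows that hold peak-free stretches of at least 1 Mb kept, an alternative chosen after seeing the data, the share of windows covered less rose to 35.3% and 22.8% for LRP1B and to 33.7% and 21.8% for NAALADL2.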
